A study of Rattus norvegicus with 12 samples.

Results

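The genes that give a neuron its main transmitter were followed in the neonatal rat preoptic area, which lies at the front of the hypothalamus and differentiates by sex around birth. They were chosen by identifier: Gad1 (ENSRNOG00000000007), Gad2 (ENSRNOG00000018200) and Slc32a1 (ENSRNOG00000015393) for GABA, and Slc17a6 (ENSRNOG00000016147) and Slc17a7 (ENSRNOG00000020650) for glutamate. They are 5 of the 29516 genes in the deposited tables, and 4 of the 5 passed the filter of at least 0.5 RPKM in at least 3 libraries that 16310 genes passed. RPKM, the deposited unit, is the number of reads scaled for the length of the gene model and for the depth of the library.

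The 12 RNA-seq libraries form 4 groups of 3: zebularine females, vehicle females, zebularine males and vehicle males. Zebularine is a cytidine analogue that inhibits DNA methyltransferases. Pups were dosed on days 0 and 1 after birth and the tissue was collected on day 2. Vehicle was saline holding 0.1% of a solvent spelled DNMSO in the design text. The labels give no strain, genotype or dose, nor whether each library is a different animal or a pool. Every p below therefore rests on library-to-library spread, part of which may be technical. Each library held between 15851731 and 30475130 reads assigned to genes, and the chi-square per degree of freedom between libraries of a group was 5.69 or more, so none was counted as 1 library deposited again. That value does not show that the libraries came from different animals.

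GABA is made from glutamate by glutamic acid decarboxylase, of which Gad1 and Gad2 encode the 2 forms, and is loaded into synaptic vesicles by the transporter that Slc32a1 encodes. Glutamate neurons are recognised by a vesicular glutamate transporter. In rodents Slc17a6 is the form of most hypothalamic and other subcortical glutamate neurons, and Slc17a7 the form of cortical and hippocampal ones. The preoptic area of rodents holds many GABA neurons next to glutamate neurons that use Slc17a6. In whole tissue, fewer cells of a type and less RNA per cell cannot be told apart.

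The methyltransferases that zebularine inhibits act on cytosines of the CG dinucleotide, so the CG content of the start regions is shown for 3 members that differ in it. Each stretch runs from 250 bases before to 50 bases after the gene start in RefSeq, build GRCr8, with CG in capitals; CG reads the same on both strands. The Slc32a1 region is chr3:167686995-167687294, the Slc17a6 region chr1:110348197-110348496 and the Slc17a7 region chr1:104785955-104786254, all on the + strand.
Slc32a1: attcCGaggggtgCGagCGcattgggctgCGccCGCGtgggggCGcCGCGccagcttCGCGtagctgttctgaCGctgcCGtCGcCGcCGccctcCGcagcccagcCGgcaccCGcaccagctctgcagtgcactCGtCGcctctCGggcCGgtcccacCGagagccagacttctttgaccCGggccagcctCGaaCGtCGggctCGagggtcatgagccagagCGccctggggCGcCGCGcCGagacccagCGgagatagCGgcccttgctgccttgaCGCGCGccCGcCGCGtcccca
Slc17a6: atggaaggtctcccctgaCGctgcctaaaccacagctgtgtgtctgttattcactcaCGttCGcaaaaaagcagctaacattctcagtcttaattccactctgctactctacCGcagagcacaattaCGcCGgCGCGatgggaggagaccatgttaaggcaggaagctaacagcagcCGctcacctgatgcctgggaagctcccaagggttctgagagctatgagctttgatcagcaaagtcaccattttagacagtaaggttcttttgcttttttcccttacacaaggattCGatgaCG
Slc17a7: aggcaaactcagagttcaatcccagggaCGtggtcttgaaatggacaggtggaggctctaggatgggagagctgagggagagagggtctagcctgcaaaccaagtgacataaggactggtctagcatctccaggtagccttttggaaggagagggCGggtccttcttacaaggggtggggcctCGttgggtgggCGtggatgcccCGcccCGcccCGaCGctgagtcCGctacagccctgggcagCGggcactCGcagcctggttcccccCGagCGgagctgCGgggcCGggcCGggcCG

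The Slc32a1 region held 42 CG dinucleotides, and 2.40% of 33469 RefSeq start regions of this length held as many or more. The Slc17a6 region held 11, a number that 39.0% of all regions reached, and the Slc17a7 region held 17, reached by 29.0%. Gad2 with 29 and Gad1 with 26 lay between, at counts that 11.5% and 15.2% of regions reached. The median over all regions was 7, and 94.5% held at least 1. Methylation itself was not measured here, and these counts describe sequence only.

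The GABA genes were among the more abundant transcripts of the tissue. Gad1, read over a gene model of 7150 bases, averaged 73.6 ± 5.04 RPKM over all libraries (SD, n = 12), on 9150 to 16001 reads per library. Its level was 68.4, 74.4 and 69.0 RPKM in zebularine females, against 76.6, 72.8 and 69.4 RPKM in vehicle females. In zebularine males it was 69.5, 80.7 and 76.4 RPKM, against 83.3, 67.8 and 74.8 RPKM in vehicle males. The groups overlapped, and the highest and lowest of the 12 libraries were both vehicle male libraries.

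Gad2, the form of the decarboxylase held largely at nerve terminals, averaged 107.7 ± 7.36 RPKM (SD, n = 12) over a gene model of 1967 bases. It stood at 108.4, 112.1 and 91.9 RPKM in zebularine females, against 101.9, 107.7 and 111.6 RPKM in vehicle females. The male values were 105.8, 114.5 and 108.2 RPKM under zebularine, against 101.6, 107.2 and 121.5 RPKM under vehicle. Zebularine female replicate 3 was the lowest of the 12 libraries for this gene, and every pair of groups compared overlapped.

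Slc32a1, the vesicular GABA transporter, averaged 104.7 ± 11.7 RPKM (SD, n = 12) over a gene model of 2384 bases. In zebularine females it stood at 100.8, 121.1 and 94.0 RPKM, against 108.2, 107.2 and 90.4 RPKM in vehicle females. In zebularine males it stood at 94.1, 97.2 and 100.1 RPKM, against 122.1, 98.0 and 123.3 RPKM in vehicle males. Among males, 2 of the 3 vehicle libraries lay above every zebularine library and the remaining library fell inside the zebularine range. Zebularine males were the tightest group, at 97.1 ± 2.96 RPKM, and vehicle males the widest, at 114.5 ± 14.3 RPKM (SD, n = 3 each). Zebularine females were nearly as wide, at 105.3 ± 14.1 RPKM, and vehicle females stood at 102.0 ± 9.99 RPKM (SD, n = 3 each).

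Slc17a6, the glutamate transporter typical of the hypothalamus, was lower than the GABA genes on the RPKM scale, at 44.4 ± 10.4 RPKM (SD, n = 12) over a gene model of 3969 bases. Its values were 55.9, 43.9 and 32.0 RPKM in zebularine females, against 29.0, 50.7 and 60.6 RPKM in vehicle females. They were 33.4, 49.5 and 50.2 RPKM in zebularine males, against 32.2, 50.9 and 44.0 RPKM in vehicle males. The values left a gap between 33.4 and 43.9 RPKM. Below it lay 4 libraries, 1 from each of the 4 groups, and above it the other 8. The low libraries were replicate 1 of vehicle females, vehicle males and zebularine males, and replicate 3 of zebularine females.

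Slc17a7, the cortical type of transporter, was close to 0 in 11 of the 12 libraries and high in the remaining library. It stood at 0.230, 0.273 and 0.229 RPKM in zebularine females, against 0.0288, 0.180 and 18.9 RPKM in vehicle females. It stood at 0.353, 0.0926 and 0.0930 RPKM in zebularine males, against 0.0425, 0.132 and 0.0654 RPKM in vehicle males. Vehicle female replicate 3 held 1665 reads of this gene, and each of the other 11 libraries between 3 and 44. Counting error alone puts that library between 18.0 and 19.8 RPKM and vehicle female replicate 1, the lowest, between 0.00595 and 0.0843 RPKM (exact Poisson intervals, 95%). Only that library reached 0.5 RPKM, so the gene did not pass the filter and was not tested.

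**Figure D1:**
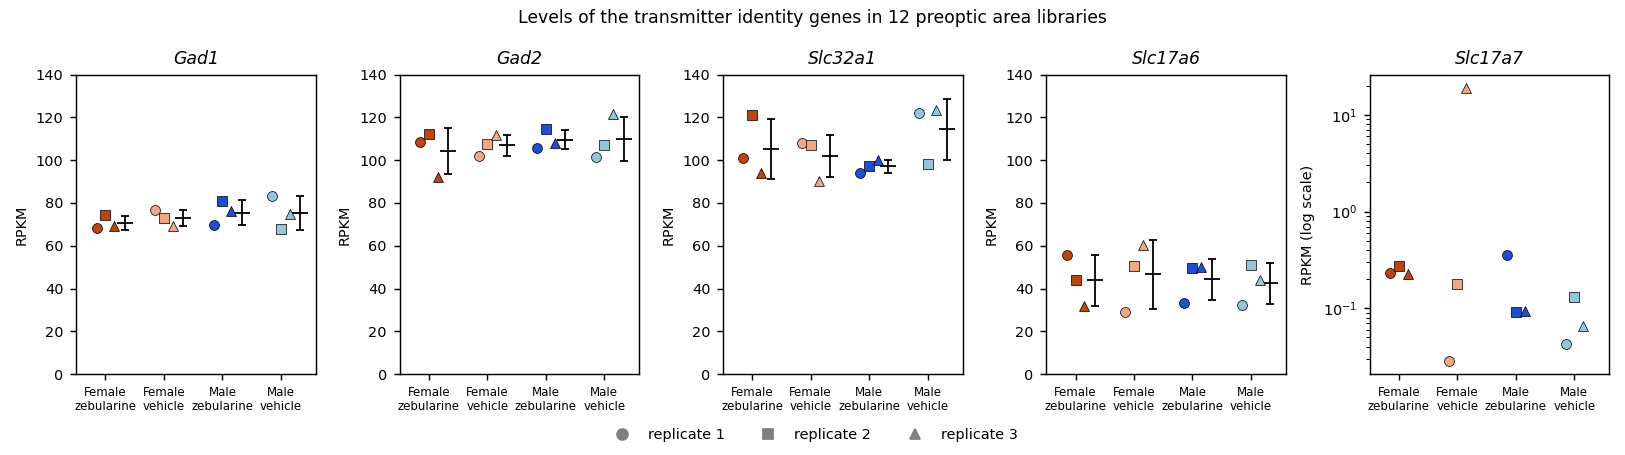
Level of each gene in RPKM in the 12 libraries, by group, with marker shapes for the replicate number and bars for the mean and SD of each group; the Slc17a7 axis is logarithmic and carries no mean. Gad1, Gad2 and Slc32a1 lie between 67.8 and 123.3 RPKM in every library, Slc17a6 between 29.0 and 60.6 RPKM, and Slc17a7 is at most 0.353 RPKM except in vehicle female replicate 3.

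The order of levels was nearly the same in every library. Gad2 was the highest of the 5 genes in 7 libraries and Slc32a1 in the other 5, and their averages over the 12 libraries lay within 1 SD of each other. Gad1 followed, then Slc17a6, and Slc17a7 was last, in all 12. These are levels per kilobase of the authors' gene models, so a model longer than the transcript in use would lower the RPKM of its gene; the Gad1 model was the longest of the 5. By mean RPKM over all libraries, Gad2 ranked 600 and Slc32a1 619 among the 29516 genes, Gad1 1013, Slc17a6 1909 and Slc17a7 13170.

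Zebularine was compared with vehicle over both sexes, 6 libraries against 6, in a limma fit across all genes of log2(RPKM + 0.5). None of the 4 members tested passed an adjusted p of 0.05 by Benjamini-Hochberg, where 0.405% of all genes tested did. That share is 66 genes, a count that was 9 with a replicate block and ran from 11 (without zebularine male replicate 1) to 111 (without zebularine female replicate 1) when 1 library was left out. No member had an unadjusted p under 0.05 either, by limma or by limma-voom on reads recovered from the RPKM steps. Of the 16310 genes, 1233 did by limma and 1181 by limma-voom, so a count of 0 among 4 members says little. The log2 difference of zebularine minus vehicle was -0.02 ± 0.06 (SE) for Gad1 and -0.02 ± 0.06 for Gad2. It was -0.09 ± 0.08 for Slc32a1 and 0.0036 ± 0.20 for Slc17a6, with limma adjusted p values from 0.775 to 0.998 over the 4 genes. The median difference of the 4 members was -0.02 and that of all tested genes 0.01.

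The precision of these comparisons differed between the members. The 95% interval of the zebularine over vehicle fold ran from 0.905 to 1.08 for Gad1, from 0.898 to 1.08 for Gad2 and from 0.831 to 1.06 for Slc32a1. For Slc17a6 it ran from 0.734 to 1.37, several times as wide. These limits surround the estimates and are not limits of detection, and a p that misses the threshold does not show that zebularine and vehicle libraries were alike.

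Within females, no member passed, where 0.0429% of all genes did (7 genes, and 0 to 56 when 1 library was left out). No member had an unadjusted limma p under 0.05, where 881 of the 16310 genes did. The log2 differences were -0.05 ± 0.08 (SE) for Gad1, -0.04 ± 0.08 for Gad2, 0.04 ± 0.11 for Slc32a1 and -0.06 ± 0.29 for Slc17a6, with limma adjusted p values of 1.00. Slc17a6 averaged 43.9 ± 11.9 RPKM in zebularine females and 46.7 ± 16.1 RPKM in vehicle females (SD, n = 3 each). Its interval was the widest, from 0.617-fold to 1.49-fold. No member's 3 treated libraries all lay above or all below its 3 vehicle libraries, a pattern that 5.87% of genes showed upward and 3.34% downward.

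Within males, no gene of the 16310 passed by limma (0% of those tested) or by limma-voom, and 1236 had an unadjusted limma p under 0.05. Other limma fits called some genes in males, 4 with the compared groups alone, 2 with a pseudocount of 0.1 RPKM and up to 15 with 1 library left out (zebularine female replicate 3), none of them a member. Slc32a1 had the smallest p of the members, at a log2 difference of -0.23 ± 0.11 (SE, limma unadjusted p = 0.0658, adjusted p = 0.658, and adjusted p from 0.516 to 0.999 over the alternatives). The interval of its fold ran from 0.720 to 1.01. The differences were 0.01 ± 0.08 for Gad1, -0.0038 ± 0.08 for Gad2 and 0.07 ± 0.29 for Slc17a6. Again no member separated its treated from its vehicle libraries, where 8.36% of genes did so upward and 5.97% downward.

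Whether the sexes responded differently was tested as the male minus female difference of the zebularine effect. No gene passed by limma (0% of those tested) or limma-voom, and 661 genes but none of the members had an unadjusted limma p under 0.05. With no filter on low values limma called 2 genes, neither of them a member. For Slc32a1 the difference was -0.27 ± 0.16 (SE, limma adjusted p = 0.976): its log2 difference was -0.23 in males and 0.04 in females. For Gad1 and Gad2 the differences were 0.05 ± 0.11 and 0.04 ± 0.12, and for Slc17a6 0.13 ± 0.41. The interval of the Slc17a6 difference reached from 0.584-fold to 2.04-fold.

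Males and females were then compared within each treatment, the comparisons that describe sex differences of the region. Under vehicle, no member passed where 0.0123% of genes did. Slc32a1 averaged 114.5 ± 14.3 RPKM in vehicle males and 102.0 ± 9.99 RPKM in vehicle females (SD, n = 3 each), a male minus female log2 difference of 0.16 ± 0.11 (SE, limma adjusted p = 1.00). Gad1 and Gad2 both differed by 0.04 ± 0.08, and Slc17a6 by -0.10 ± 0.29. Vehicle female replicate 3 held the highest Slc17a6 and the lowest Slc32a1 of the 12 libraries. Without it the Slc17a6 difference was 0.12 and the Slc32a1 difference 0.08 (limma adjusted p = 1.00 for both).

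Under zebularine, no member passed where 0.0307% of genes did (5 genes, and 3 to 17 when 1 library was left out). The male minus female log2 differences were 0.09 ± 0.08 (SE) for Gad1, 0.08 ± 0.08 for Gad2, -0.11 ± 0.11 for Slc32a1 and 0.03 ± 0.29 for Slc17a6, with limma adjusted p values from 0.684 to 0.981. Members whose 3 male libraries all lay on one side of the 3 female libraries were 0 in both treatments. Under vehicle 2.84% of genes showed this upward and 3.79% downward, and under zebularine 6.95% and 8.47%.

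**Figure D2:**
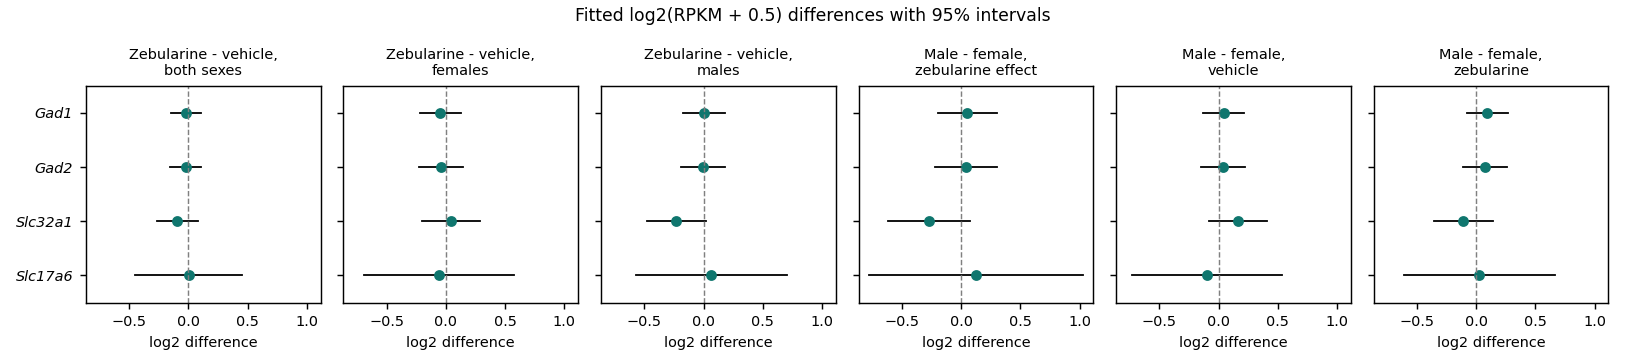
Fitted differences on the log2(RPKM + 0.5) scale (points) with 95% intervals (lines) for the 4 tested genes in the 6 comparisons, with 0 as the dashed line. All 24 intervals include 0, and those of Slc17a6 are the widest in each panel.

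Differences between libraries of one group were smaller for the GABA genes than for Slc17a6. The SD within groups, on the log2(RPKM + 0.5) scale, was 0.10 for Gad1, 0.11 for Gad2, 0.15 for Slc32a1 and 0.41 for Slc17a6. Over all tested genes the median was 0.14, and over the 4350 genes with a mean of at least 20 RPKM it was 0.096. Of those 4350 genes, 98.8% had a smaller SD than Slc17a6. With 2714 to 5610 reads of Slc17a6 in each library, counting error alone gives an SD of at most 0.028 on the log2 scale. The SD of Slc32a1 exceeded that of 83.1% of the abundant genes, while Gad1 and Gad2 exceeded 56.8% and 61.8%.

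**Figure D3:**
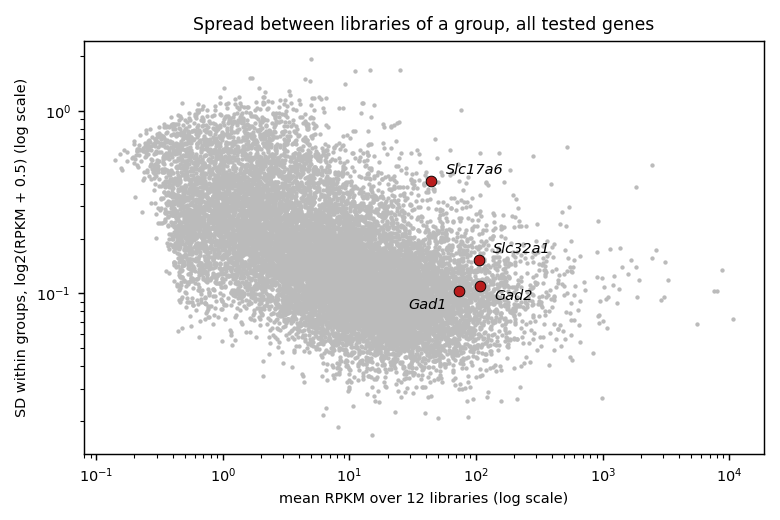
SD between libraries of a group on the log2(RPKM + 0.5) scale against mean RPKM, both on log axes, for the 16310 tested genes (grey) and the 4 tested transmitter genes (red). Slc17a6 lies at 0.41, above 98.8% of the genes with at least 20 RPKM, and the 3 GABA genes lie between 0.10 and 0.15.

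Ratios within a library set the 2 transmitter types against each other without any scaling between libraries. They were chosen with the values in view and are given with no test. The level of Slc17a6 was 0.55, 0.36 and 0.34 times that of Slc32a1 in zebularine females, against 0.27, 0.47 and 0.67 times in vehicle females. It was 0.35, 0.51 and 0.50 times in zebularine males, against 0.26, 0.52 and 0.36 times in vehicle males. The ratio spanned 2.54-fold over the 12 libraries and both extremes were vehicle libraries, the highest being vehicle female replicate 3.

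Between the decarboxylases the ratio held closer. Gad2 stood at 1.47 ± 0.130 times Gad1 in zebularine females and 1.47 ± 0.138 times in vehicle females, and at 1.45 ± 0.0602 times in zebularine males and 1.47 ± 0.222 times in vehicle males (SD, n = 3 each). The ratio of Slc32a1 to Gad1 was 1.35, 1.20 and 1.31 in zebularine males, all below the 1.47, 1.45 and 1.65 of vehicle males. How often a ratio of 2 genes separates the male groups was not computed. By level alone, 5.97% of single genes lay lower in all 3 zebularine males and 8.36% higher. In females the ratio of Slc32a1 to Gad1 was 1.47, 1.63 and 1.36 under zebularine, against 1.41, 1.47 and 1.30 under vehicle, and the groups overlapped. Set against Gad2 instead of Gad1, Slc32a1 overlapped between the male groups, at 0.85 to 0.92 times Gad2 in zebularine males and 0.91 to 1.20 times in vehicle males. Zebularine males also lay below all 3 zebularine females in both ratios. The values were at most 1.354 against at least 1.361 over Gad1, and at most 0.925 against at least 0.930 over Gad2. Of single genes, 8.47% lay lower by level in all 3 zebularine males than in zebularine females, and 6.95% higher.

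**Figure D4:**
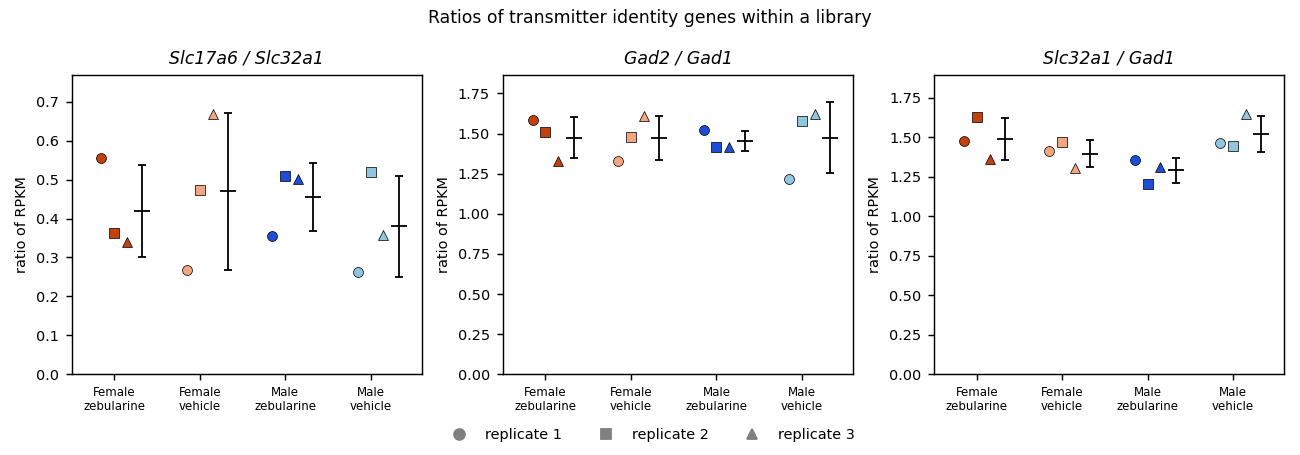
Ratios of RPKM within each library, with marker shapes for the replicate number and bars for the mean and SD of each group of 3. Slc17a6 over Slc32a1 spans from 0.26 to 0.67 with all groups overlapping, and Gad2 over Gad1 averages between 1.45 and 1.47 in every group. Slc32a1 over Gad1 is lower in the 3 zebularine males than in the 3 vehicle males and than in the 3 zebularine females. Slc32a1 over Gad2, not drawn, separates zebularine males from zebularine females but not from vehicle males. By level, 5.97% of single genes lie lower in all 3 zebularine males than in vehicle males, and the share for ratios was not computed.

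The members did not deviate from their group means as one block. Gad1 and Slc32a1 lay on the same side of their group means in 10 of 12 libraries, and so did Gad2 and Slc17a6, whereas Gad1 and Gad2 did so in 5. Values of one library share its depth and its tissue sample, and deviations within a group of 3 sum to 0, so these counts are descriptions.

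The search for genes with the most similar pattern covered 14368 other genes with a mean of at least 1 RPKM, by Pearson r of log2(RPKM + 0.5) over the 12 libraries. No table used here gives their symbols, so these genes are named by identifier. The gene most like Slc17a6 was ENSRNOG00000013654, at r = 0.98, with 61.8, 48.4 and 34.6 RPKM in zebularine females, against 32.4, 52.2 and 57.1 RPKM in vehicle females. In males ENSRNOG00000013654 stood at 35.2, 49.1 and 52.8 RPKM under zebularine, against 36.1, 52.1 and 48.6 RPKM under vehicle, so it was low in the same 4 libraries as Slc17a6. The second was ENSRNOG00000005369, at r = 0.98 and between 3.74 and 9.03 RPKM.

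In all, 42 genes reached an r of 0.9 with Slc17a6 and 18 an r of -0.9 or lower. For Slc32a1 these numbers were 16 and 3, for Slc17a7 5 and 1, for Gad1 0 and 1, and for Gad2 0 in both directions. For genes outside the members such counts were not computed, so it is not known which of these counts are unusual. Slc32a1 was closest to ENSRNOG00000002887 and ENSRNOG00000021103, at r = 0.95 and 0.94. Gad1 was closest to ENSRNOG00000008223 and ENSRNOG00000016623 (r = 0.89 and 0.86), and Gad2 to ENSRNOG00000016280 and ENSRNOG00000042958 (r = 0.88 for both). These values of r are descriptions over 12 libraries that share the search across all genes, and nothing is drawn from them about function or control.

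The 2 genes most like Slc17a7 shared its single high library. ENSRNOG00000013330 stood at 122.9 RPKM in vehicle female replicate 3 and at most at 16.8 RPKM elsewhere, with r = 0.97. ENSRNOG00000013290 stood at 13.9 RPKM there and at most at 8.31 RPKM elsewhere, with r = 0.95. Both values of r rest on that library.

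**Figure D5:**
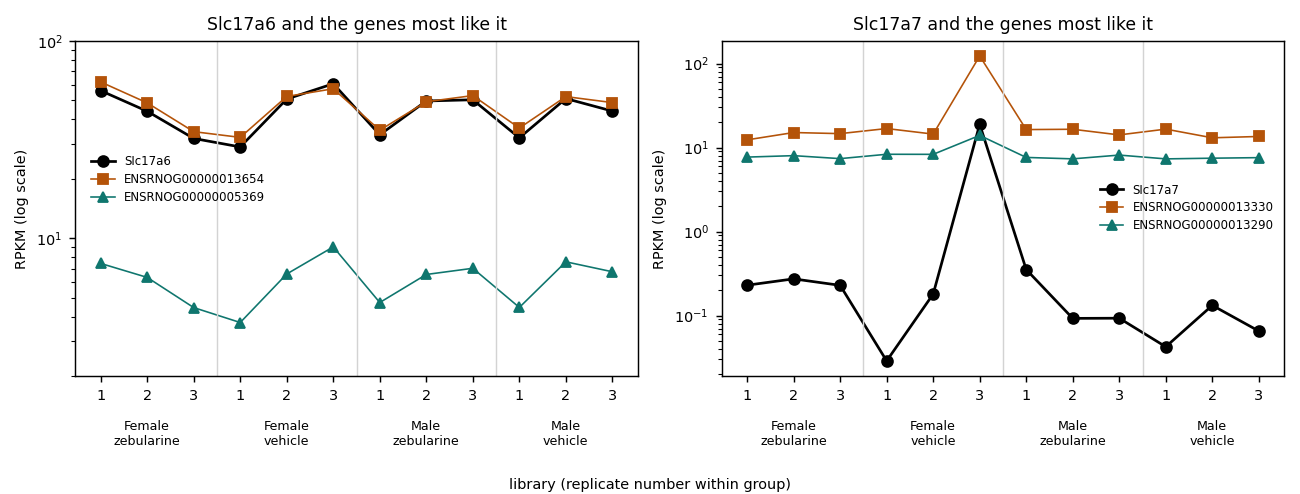
RPKM on a log axis in each of the 12 libraries for Slc17a6 (left) and Slc17a7 (right), each with the 2 genes of highest Pearson r. ENSRNOG00000013654 and ENSRNOG00000005369 rise and fall with Slc17a6 across all groups, while the genes beside Slc17a7 have 1 peak, in vehicle female replicate 3.

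The Slc17a7 level of vehicle female replicate 3 was 53.5 times that of the next highest library. By the criterion of at least 1 RPKM and at least 4 times the level of every other library, 12 genes were set apart in it, and Slc17a7 had rank 3 among them by that ratio. The same criterion gave 106 genes in zebularine female replicate 3, and between 0 and 5 in each of the other 10 libraries. Among the members, this vehicle library also had the highest Slc17a6, at 60.6 RPKM against at most 55.9 RPKM elsewhere, and the lowest Slc32a1, at 90.4 RPKM against at least 94.0 RPKM elsewhere. Its Gad1 and Gad2 lay inside the range of the other libraries. Marker lists of other brain regions and cell types were not analysed here, and their part in these values was not tested.

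The Slc17a7 differences between groups turn on that library. Zebularine minus vehicle was -1.36 on the log2(RPKM + 0.5) scale in females with it and 0.31 without it. Over both sexes the difference was -0.58 with it and 0.26 without it, and in males, where it plays no part, 0.21. Male minus female under vehicle was -1.72 with it and -0.05 without it. In a fit with no filter on low values, which tests the gene, none of the 6 comparisons passed (smallest limma unadjusted p = 0.133). At 3 to 44 reads per library, differences between the groups at the remaining low levels rest on few reads.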

How the data were processed

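RNA of the preoptic area was sequenced in 12 libraries, 1 deposited table each. Per the labels' protocols, RNA was extracted with Trizol and libraries followed a standard Illumina procedure; the submitters' processing notes list TopHat, with no version. Which counter, genome build, annotation and strand setting were used is not given in the sources used here. The authors deposited RPKM values without symbols. The 5 symbols come from the list that defined the members, and the reference table (RefSeq, GRCr8) matched 0 of 29516 identifiers, so 13 lists of pathway and marker genes are not analysed here. Promoter sequences were matched by symbol, for all 5.

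The values were whole multiples of 1 read for all 23427 genes above 0, with a largest deviation of 2.44e-09 of a read, which gave reads, depth and gene model lengths. Intervals on reads cover counting error only. log2(RPKM + 0.5) was fitted with limma 3.58.1 (R 4.3.3, eBayes with trend) as 4 group means, for genes with at least 0.5 RPKM in 3 libraries, two-sided, with Benjamini-Hochberg adjustment over 16310 genes and a threshold of 0.05. The fit was tested, for zebularine against vehicle over both sexes only, on simulated data in which all genes had the same spread between libraries. That spread was smaller than the spread of Slc17a6, so the test does not cover the precision for that gene. Other values used Python 3.11.15, pandas 2.3.3, numpy 2.4.6, scipy 1.17.1 and matplotlib 3.10.9. Named genes are the 5 members and, for each, the 2 genes of highest r. Members and lists were chosen with earlier results of these data known. Alternatives were 2 scalings, 2 pseudocounts, 2 filters, the compared groups alone, a replicate block, limma-voom on recovered reads, and leaving out each library.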

Additional observations from a re-analysis of the deposited data

Results flagged for a closer look

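In each treatment the 6 libraries of both sexes were screened for a single library far from the rest, in 10 sets, 5 genes by 2 treatments; chance flags about 1 set in 20. Slc17a7 in vehicle libraries stood out, because vehicle female replicate 3 held 18.9 RPKM where the other vehicle libraries held at most 0.180 RPKM, a gap of 0.992 of the whole range. Slc32a1 in zebularine libraries stood out as well, because zebularine female replicate 2 held 121.1 RPKM and the next highest library 100.8 RPKM, a gap of 0.748 of the range. For 6 libraries the critical value is 0.625. Without zebularine female replicate 2, Slc32a1 passed in none of the 6 comparisons, and its zebularine minus vehicle difference in females was -0.06 on the log2 scale, against 0.04 with it.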

How the results depend on the processing

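No member passed the threshold in any of the 6 comparisons under any alternative run, with a smallest limma adjusted p of 0.451. The planned quasi-likelihood count test was not run, because the tables hold RPKM; limma-voom on recovered reads was. The fit of the compared groups alone gives no separate value over both sexes or for the sex difference of the effect. Of 496 recomputed log2 differences of the 4 tested members, 184 were identical by construction (filters, replicate block, compared groups alone, or a library outside the contrast). Of the other 312, 42 changed sign. Over both sexes Slc17a6 was -0.0029 with median-ratio scaling and -0.0081 with limma-voom, and Gad2 in males was 0.032 with quantile normalization; the cause was not tested.

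The ranges that crossed 0 with 1 library left out come first. Zebularine minus vehicle over both sexes ran from -0.056 to 0.018 for Gad1, -0.052 to 0.020 for Gad2 and -0.15 to 0.11 for Slc17a6. In females it ran from -0.10 to 0.043 for Gad2, -0.062 to 0.12 for Slc32a1 and -0.37 to 0.16 for Slc17a6. In males it ran from -0.066 to 0.082 for Gad1, -0.059 to 0.069 for Gad2 and -0.12 to 0.26 for Slc17a6. The male minus female difference of the effect ran from -0.019 to 0.13 for Gad1, -0.047 to 0.11 for Gad2 and -0.092 to 0.43 for Slc17a6. Male minus female under vehicle ran from -0.033 to 0.11 for Gad1, -0.036 to 0.092 for Gad2 and -0.41 to 0.12 for Slc17a6. Under zebularine it ran from -0.010 to 0.13 for Gad2 and -0.18 to 0.22 for Slc17a6. Slc32a1 kept its sign but ran from -0.15 to -0.054 over both sexes, -0.34 to -0.17 in males, -0.38 to -0.17 for the sex difference of the effect, 0.079 to 0.27 between sexes under vehicle and -0.19 to -0.0031 under zebularine. Gad1 kept its sign in females, from -0.084 to -0.011, and between sexes under zebularine, from 0.046 to 0.15.

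Counts over all genes moved more, with none of the members among them. Without 1 library, the count ran from 11 to 111 over both sexes (66 with all), 0 to 56 in females (7), 0 to 15 in males (0) and 3 to 17 between sexes under zebularine (5). With a pseudocount of 0.1 RPKM it was 4 in females and 2 in males. With the compared groups alone it was 1 in females, 4 in males, 1 between sexes under vehicle (2 with all groups) and 1 under zebularine. With no filter it was 2 for the sex difference of the effect (0) and 5 between sexes under vehicle. By limma-voom it was 1 in females and 3 between sexes under zebularine.

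Of the 18 same-numbered pairs of libraries, 5 had deviations with r over 0.1, and 4 of 12 libraries correlated best with their own number. The median r was -0.021 for same-numbered pairs and 0.026 for the other 36. Replicate 1 of vehicle females, vehicle males and zebularine males correlated with each other, at r from 0.16 to 0.30. Replicate 1 of zebularine females went the other way, at r from -0.30 to -0.11 with those libraries. The differently numbered pairs covered a similar range, with r from -0.29 to 0.23. The lowest was vehicle male replicate 2 with zebularine male replicate 1, and the highest vehicle female replicate 3 with vehicle male replicate 2. What the replicate numbers stand for is not given in the labels. With a replicate block the count was 9 over both sexes, 1 in females and 3 between sexes under zebularine. Depth limits Slc17a7, at 3 to 44 reads outside vehicle female replicate 3; for Slc17a6 the spread between libraries sets the limit.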
